A study of Mus musculus with 7 samples.

Results

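The genes described here are 32 genes of glycolysis, lactate export and the hypoxia-inducible factor (HIF) response, taken by symbol from a table of 19589 gene symbols, and all 32 symbols were found. They comprise 3 glucose transporter genes, 3 hexokinase genes, the other enzymes of glycolysis with their isozymes, a pair of fructose 2,6-bisphosphate enzymes, Bpgm, both lactate dehydrogenase chains, a pair of lactate transporters, 3 pyruvate dehydrogenase kinases, Hif1a and Egln3. The RNA came from CD4+ cells that flow cytometry sorted out of C57BL/6 spleens, in 7 libraries. The 3 libraries labelled RT (RT1 to RT3) came from mice of genotype Tet2-/-G17VRHOA, which lack Tet2, an enzyme that oxidises methylated cytosines, and carry the G17V form of the small GTPase RHOA. The 4 libraries labelled WT (WT1 to WT4) came from wild-type mice. All were sorted on CD4 from the same strain and organ with no treatment named. The sources used here do not give the deleted part of Tet2, the promoter or Cre that drives G17V RHOA, or the age and health of the mice. Levels are RPKM, in which a read count is divided by gene length and library total.

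Glycolysis turns glucose into pyruvate. Transporters of the Slc2a family take glucose up, hexokinase traps it, phosphofructokinase commits it, and the lower steps yield ATP and pyruvate. Lactate dehydrogenase turns pyruvate into lactate, which leaves the cell through monocarboxylate transporters, while pyruvate dehydrogenase kinases hold pyruvate back from the mitochondria. In T cells many of these genes are raised by activation. Many carry binding sites for HIF, a transcription factor whose alpha chain HIF1A is marked for destruction by prolyl hydroxylases such as EGLN3.

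Sequencing depth split the 7 libraries into a deep and a shallow set, each with both genotypes. The deep set was RT1, WT1 and WT2, with totals behind the values of 18566233 to 21800352 reads, and the shallow set was RT2, RT3, WT3 and WT4, with totals of 105763 to 121659 reads. In a gene of 2 kb, 1 read was worth 0.0229 to 0.0269 RPKM in the deep set and 4.11 to 4.73 RPKM in the shallow set. RPKM values also summed to 133044 to 152578 in deep and 326187 to 366023 in shallow libraries, so a gene's level should be read within a set. The comparison of RT with WT was made first with limma on log2(RPKM + 1) and then with limma voom on the whole reads behind the values, both with a term for the library set. A gene is said to pass, to be called, or to have risen or fallen where its p, adjusted by Benjamini-Hochberg over all genes tested, was under 0.05. The second fit gives the deep libraries more weight and so leans on RT1 against WT1 and WT2. WT3 and WT4 were closer to each other than RT2 and RT3 were. The chi-square per degree of freedom was 1.21 over 2373 genes for WT3 and WT4, against 3.05 over 2192 genes for RT2 and RT3. WT3 and WT4 differed beyond sampling noise (chi-square p = 5.55e-12), but this cannot tell 2 animals from 2 libraries of 1 animal. They were counted as 2 samples. Nothing but the series' mention of separate mice says that they are separate animals.

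Members from several steps of the pathway were higher in RT on reads, and a glucose transporter and a pyruvate dehydrogenase kinase were lower. By limma voom on reads 12 of the 20 members tested rose in RT, 2 fell and 6 did not pass, where 9.42% of all 5900 genes tested rose and 8.19% fell. The 12 that rose were Slc2a6, Pfkl, Pfkp, Aldoa, Tpi1, Gapdh, Pgk1, Pgam1, Pkm, Slc16a3, Hif1a and Egln3, and the 2 that fell were Slc2a3 and Pdk1. The median log2 fold change of the 20 members was 0.84, beside -0.03 over all genes tested. By limma on log2(RPKM + 1) only Tpi1 and Aldoa passed among 31 members tested, where 0.219% of 9605 genes tested were higher and 0.0521% were lower, and no member was lower. The median over these 31 members was 1.06, beside -0.03 over all genes, and 17 of them had an unadjusted limma p under 0.05, as did 13% of all genes. The members tested are those above a minimum level, so these counts are not counts over all 32. The minimum of 10 shallow reads was reached in RT alone by Gapdh, Slc16a3 and Egln3, in WT alone by Slc2a3 and Pdk1, and by Slc2a6 only with both groups added.

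Overlap between the groups was also counted within each set, over all 32 members. For 15 members every RT library lay above every WT library of its own set, where 10.2% of the genes of the RPKM fit did so, and for 2 members every RT library lay below, where 10.2% of genes did so. The 15 were the 12 genes named above with Slc2a1, Gpi1 and Aldoc, and the 2 were Slc2a3 and Pdk1. In the deep libraries alone RT1 lay above both WT libraries for 23 members and below both for 6, while 39.6% of genes lay above and 34.2% below. When RT1 was left out, which removes all deep RT reads, the limma voom fit called 0 genes of any kind, with 494 genes and 12 members at an unadjusted p under 0.05, so each call on reads below is uncalled there. The 12 higher members then had log2 fold changes of 1.41 (Pfkp) to 4.58 (Slc16a3), and Slc2a3 and Pdk1 had -1.63 and -2.14. The shallow libraries alone, which also lack RT1, gave 12 members higher, where 3.17% of genes were higher, and 1 lower, where 4.24% were lower. These were not the same 12, since Eno1, Ldha and Gpi1 were among them and Slc2a6, Gapdh and Egln3 were not. The lower one was Pdk1, and Slc2a3 was not called. The median SE there was 0.39 for members and 0.59 over all genes tested.

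**Figure D1:**
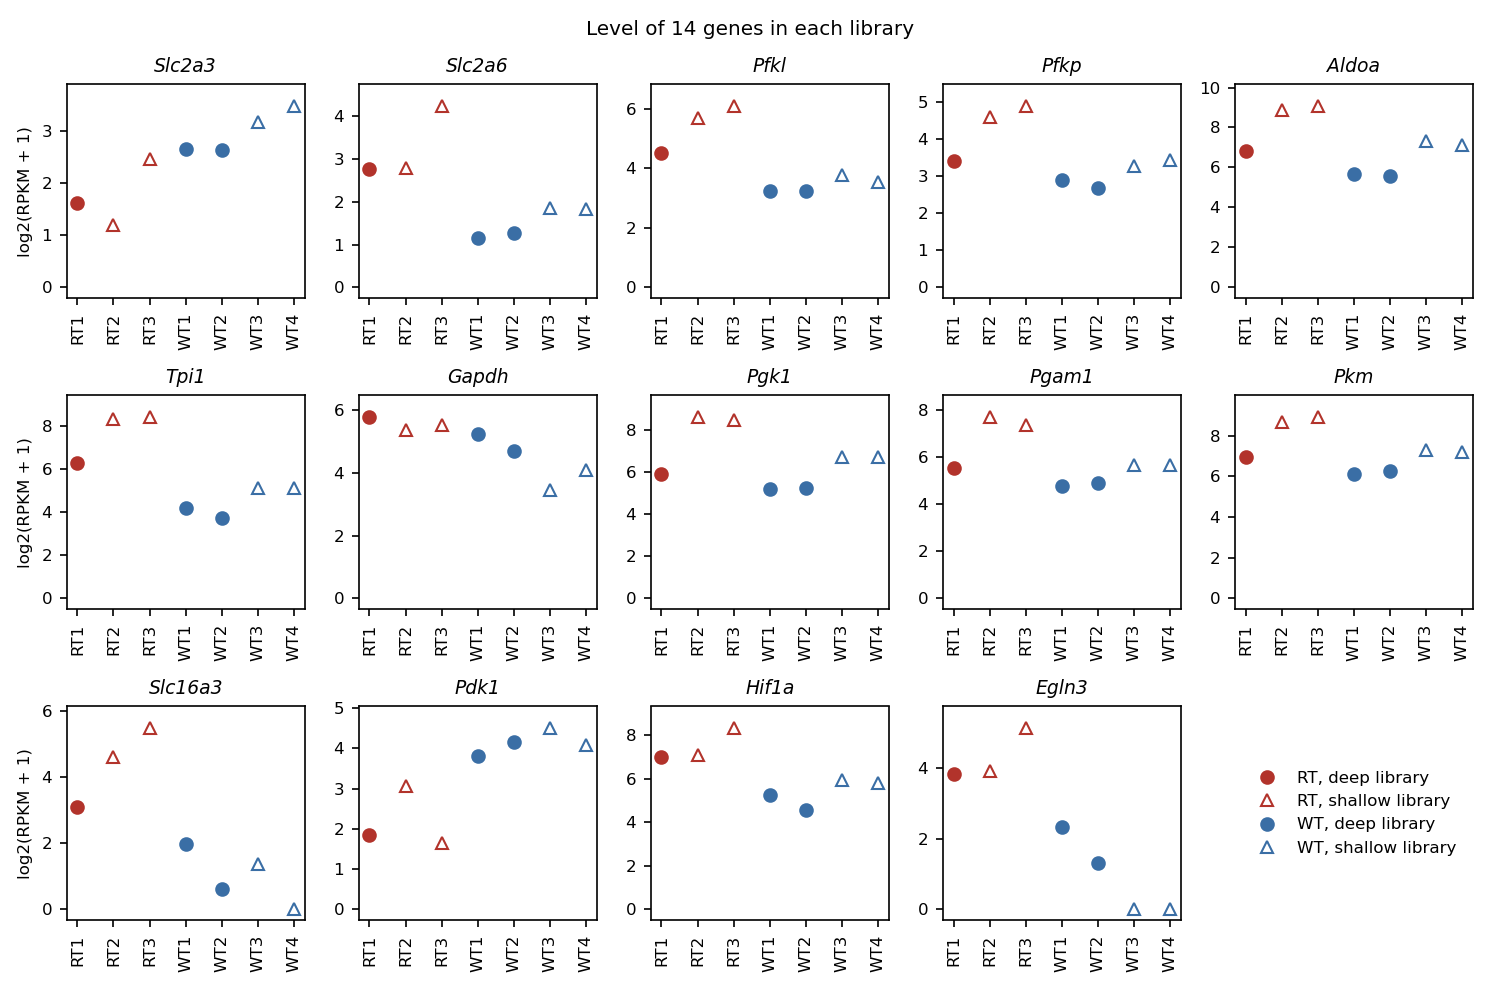
Level of the 14 members called on reads in each library, as log2(RPKM + 1), with RT libraries (red) left of WT libraries (blue), filled circles for the deep and open triangles for the shallow set. Within each set every RT symbol lies above every WT symbol for 12 genes and below for Slc2a3 and Pdk1.

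Promoter windows are shown for 6 members whose values are described below, because genes bound by HIF often share the core letters ACGTG or GCGTG. The windows are from RefSeq (GRCm38.p6), 250 bases before to 50 after the start, printed 5′ to 3′ on the gene's own strand. Capitals mark ACGTG or GCGTG on either strand, so that the reverse strand reads CACGT or CACGC. The palindrome CACGTG, which is also the E-box read by MYC and USF factors, counts once on each strand. The windows lie at chr6:124814109-124814408 (minus strand) for Tpi1, chrX:106186850-106187149 (plus) for Pgk1, chr11:120948817-120949116 (plus) for Slc16a3, chr12:54203825-54204124 (minus) for Egln3, chr2:71872974-71873273 (plus) for Pdk1 and chr7:46845554-46845853 (plus) for Ldha, each of the last 2 taken at the first listed of 2 starts.
Tpi1: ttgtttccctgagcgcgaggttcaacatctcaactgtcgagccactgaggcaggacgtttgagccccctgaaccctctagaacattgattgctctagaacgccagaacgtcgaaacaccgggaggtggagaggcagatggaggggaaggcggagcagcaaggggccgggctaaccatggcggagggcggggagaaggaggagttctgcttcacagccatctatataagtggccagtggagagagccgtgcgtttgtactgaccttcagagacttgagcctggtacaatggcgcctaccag
Pgk1: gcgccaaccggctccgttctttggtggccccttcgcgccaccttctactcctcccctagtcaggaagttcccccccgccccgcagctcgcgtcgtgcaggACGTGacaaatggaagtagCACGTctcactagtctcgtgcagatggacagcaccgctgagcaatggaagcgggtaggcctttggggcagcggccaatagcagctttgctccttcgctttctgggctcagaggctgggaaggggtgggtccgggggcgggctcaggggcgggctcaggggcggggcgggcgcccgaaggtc
Slc16a3: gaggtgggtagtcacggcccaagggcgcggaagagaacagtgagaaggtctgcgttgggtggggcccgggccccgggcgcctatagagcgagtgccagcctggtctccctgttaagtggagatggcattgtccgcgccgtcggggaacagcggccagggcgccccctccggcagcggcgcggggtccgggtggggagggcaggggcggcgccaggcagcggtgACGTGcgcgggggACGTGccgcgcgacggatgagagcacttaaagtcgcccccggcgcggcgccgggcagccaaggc
Egln3: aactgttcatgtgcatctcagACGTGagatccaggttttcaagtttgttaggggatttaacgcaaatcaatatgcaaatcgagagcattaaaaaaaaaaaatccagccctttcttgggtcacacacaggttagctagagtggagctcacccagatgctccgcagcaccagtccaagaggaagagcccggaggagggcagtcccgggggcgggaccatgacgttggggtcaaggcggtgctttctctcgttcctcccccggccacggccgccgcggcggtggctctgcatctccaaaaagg
Pdk1: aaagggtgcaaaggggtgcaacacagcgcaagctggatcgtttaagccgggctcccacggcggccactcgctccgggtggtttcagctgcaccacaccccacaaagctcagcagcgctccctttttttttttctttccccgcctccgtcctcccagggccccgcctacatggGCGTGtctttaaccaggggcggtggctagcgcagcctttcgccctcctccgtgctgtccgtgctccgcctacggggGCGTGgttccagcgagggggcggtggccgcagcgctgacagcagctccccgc
Ldha: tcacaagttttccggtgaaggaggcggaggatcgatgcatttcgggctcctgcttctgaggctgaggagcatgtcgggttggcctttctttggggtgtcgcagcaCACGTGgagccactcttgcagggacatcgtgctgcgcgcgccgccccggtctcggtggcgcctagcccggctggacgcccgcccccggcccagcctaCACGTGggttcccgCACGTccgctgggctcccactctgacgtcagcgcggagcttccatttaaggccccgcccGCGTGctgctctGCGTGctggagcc

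Tpi1 has no match in its window, while Pgk1, Slc16a3 and Pdk1 have 2 each and Egln3 has 1. The Ldha window has 7, of which 4 come from 2 copies of CACGTG. A match was common: 43.8% of 32851 RefSeq promoter windows of this length hold ACGTG or GCGTG on either strand, and 7.15% hold CACGTG. Taking every annotated start of a gene, 27 of the 31 members with a window (87.1%) had a match in at least 1, beside 46.7% of 27025 genes. A gene with more starts has more chances of a match. Counted by window, 35 of 45 member windows (77.8%) had one, beside the 43.8% above. Promoters of like base content were not compared. Among members that rose on reads 11 of 12 had a match, and so had Pdk1, the 1 lower member with a window, and 5 of the 6 tested members that did not pass. A match describes the letters of a window and does not show a bound site, nor does a missing match say anything of the factor.

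Glucose transporters moved in different directions. Slc2a3, a high-affinity glucose transporter of neurons and lymphocytes (chromosome 6, 122727809 to 122801640, mm10), had 2.06, 1.31 and 4.54 RPKM in RT1, RT2 and RT3, against 5.29, 5.24, 8.12 and 10.2 RPKM in WT1 to WT4. Every RT library lay below every WT library, although the shallow values rest on 5 reads in RT and 16 in WT. Slc2a3 fell on reads, with a log2 fold change of -1.38 ± 0.18 (SE, limma voom adjusted p = 0.00212), and did not pass on RPKM (-1.31 ± 0.44, limma adjusted p = 0.28). In the shallow libraries alone it was not called (-1.58 ± 0.83, limma voom adjusted p = 0.284). Slc2a6, a lysosomal hexose transporter, had 5.86, 5.89 and 17.9 RPKM in RT1 to RT3, against 1.22, 1.43, 2.62 and 2.56 RPKM in WT1 to WT4. The groups did not overlap, although the shallow values rest on 9 reads in RT and 2 in WT. Slc2a6 rose on reads by 2.09 ± 0.21 (log2, SE; limma voom adjusted p = 0.000674). Slc2a1, the main glucose transporter of activated T cells, stood at 11.7 to 35.1 RPKM in RT and at 4.69 to 19.2 RPKM in WT and did not pass (0.66 ± 0.21, limma voom adjusted p = 0.0626). Of the RPKM of these 3 transporters, Slc2a3 held 10.5% in RT1, against 36.2% and 38.6% in WT1 and WT2.

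Among hexokinases, which phosphorylate glucose, the leading isozyme did not pass the test. Hk1 held 62.9% of hexokinase RPKM in RT1, against 92.2% in WT1 and 89.6% in WT2. Its level was 15.9, 19.9 and 33.7 RPKM in RT1 to RT3 and 13.5 to 24.6 RPKM in WT, with a log2 fold change of 0.01 ± 0.17 (limma voom adjusted p = 0.964). Hk2, an inducible isozyme bound to mitochondria, had 4.37 RPKM in RT1, against 0.785 and 0.878 RPKM in WT1 and WT2. Hk3, an isozyme found mainly in myeloid cells, had 5.03 RPKM in RT1, against 0.585 and 1.03 RPKM in WT1 and WT2. Both rest on the deep set, since the shallow libraries held 4 Hk2 reads in RT and 1 in WT, and 1 Hk3 read in each genotype. With the read filter taken over all 7 libraries, where 5.89% of 13183 genes were higher, Hk2 was called at 2.30 ± 0.33 and Hk3 at 2.50 ± 0.40 (limma voom adjusted p = 0.00809 for Hk2 and 0.0111 for Hk3). Markers of monocytes, macrophages and neutrophils moved with Hk3: the 9 genes of that list summed to 2364 RPM (reads per 1000000 recovered in genes) in RT1, against 772 and 507 RPM in WT1 and WT2, and their part in the Hk3 and Hk2 values was not tested.

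Upper glycolysis, from glucose 6-phosphate to the triose phosphates, held the 2 members that passed in both fits. Tpi1, triosephosphate isomerase (chromosome 6, 124810586 to 124814296), had 77.7, 321 and 342 RPKM in RT1 to RT3, against 17.6, 12.5, 34.3 and 33.5 RPKM in WT1 to WT4. The lowest RT value, from the deep library RT1, was above the highest WT value, from a shallow one. Its log2 fold change was 2.88 ± 0.25 on RPKM (limma adjusted p = 0.0337) and 2.45 ± 0.21 on reads (limma voom adjusted p = 0.000512). The RPKM call was lost without any 1 of RT2, RT3, WT1, WT2, WT3 or WT4, with limma adjusted p-values of 0.0659 to 0.2, and at the same 6 omissions for Aldoa, described next, with 0.112 to 0.215. The shallow libraries together held 167 Tpi1 reads in RT and 18 in WT, a 9.51-fold ratio per recovered read with a 95% exact interval of 5.84 to 16.4 that covers counting error only. Aldoa, the aldolase of muscle and most other tissues (chromosome 7, 126795234 to 126800751), had 113, 468 and 534 RPKM in RT1 to RT3, against 50.4, 47.3, 159 and 138 RPKM in WT1 to WT4. Within each set the groups did not overlap, while RT1 lay below WT3 and WT4. Aldoa rose by 1.53 ± 0.19 on RPKM (limma adjusted p = 0.0451) and by 1.34 ± 0.14 on reads (limma voom adjusted p = 0.000968). Aldoc, a second aldolase best known from brain, was listed at 0 in both shallow WT libraries and passed the RPKM filter only through RT. It had 2.83, 2.90 and 5.04 RPKM in RT, on 201 reads in RT1 and 1 and 2 reads in RT2 and RT3.

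Phosphofructokinase 1, which commits sugar to glycolysis, had 2 of its 3 chains higher in RT on reads. Pfkl, the liver-type chain (chromosome 10, 77986947 to 78010083), had 21.6, 50.6 and 66.9 RPKM in RT1 to RT3, against 8.36, 8.37, 12.6 and 10.6 RPKM in WT1 to WT4. Every RT library lay above every WT library. Pfkl rose on reads by 1.41 ± 0.16 (limma voom adjusted p = 0.00144), and on RPKM its change of 1.85 ± 0.28 did not pass (limma adjusted p = 0.0691). Pfkp, the platelet-type chain, had 9.75, 23.3 and 28.8 RPKM in RT, against 6.51, 5.4, 8.78 and 9.82 RPKM in WT. It rose on reads by 0.79 ± 0.18 (limma voom adjusted p = 0.022), and RT1 lay just under WT4 across the sets. The call was lost without RT3, WT3 or WT4, with limma voom adjusted p-values of 0.0542 to 0.0572, and with WT3 and WT4 summed (limma voom adjusted p = 0.0507). With a block for the replicate number Pfkp was also not called (0.87 ± 0.24, limma voom adjusted p = 0.107). Pfkl held 62.2%, 68.5% and 64.9% of phosphofructokinase RPKM in RT1 to RT3, against 52.4%, 50.4%, 47.7% and 51.8% in WT1 to WT4, with no overlap. These shares were not tested, and those of WT3 and WT4 rest on 23 and 22 reads. Pfkm, the muscle-type chain, was below 7.39 RPKM in every library and was not called. Gpi1, the isomerase that precedes this step, stood at 37.0 to 144 RPKM in RT and 30.6 to 70.4 RPKM in WT and did not pass (0.39 ± 0.16, limma voom adjusted p = 0.144). In the shallow libraries alone Gpi1 was called at 0.86 ± 0.27 (limma voom adjusted p = 0.0321).

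The enzymes that set fructose 2,6-bisphosphate, the activator of phosphofructokinase 1, were not called. Pfkfb3, with mainly kinase activity, had 9.20 RPKM in RT1, against 5.87 and 5.42 RPKM in WT1 and WT2. In the shallow libraries it had 3.75 and 14.1 RPKM in RT2 and RT3, against 13.3 and 13 RPKM in WT3 and WT4. Its log2 fold change was 0.59 ± 0.22 on reads (limma voom adjusted p = 0.108), -0.20 on RPKM and -0.77 in the shallow libraries alone, so it has no settled direction. Pfkfb4 had 2.91 RPKM in RT1, against 1.75 and 1.43 RPKM in WT1 and WT2, and was listed at 0 in RT2 and RT3.

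In lower glycolysis 4 of the 5 genes tested on reads rose in RT and none fell. Pgk1, phosphoglycerate kinase, which makes ATP (chromosome X, 106187100 to 106203699), had 58.9, 392 and 352 RPKM in RT1 to RT3, against 36.0, 37.1, 105 and 106 RPKM in WT1 to WT4. Pgam1, phosphoglycerate mutase, had 46.1, 207 and 166 RPKM in RT, against 26.6, 28.5, 50.5 and 49.4 RPKM in WT. Pkm, pyruvate kinase of muscle and proliferating cells, had 123, 410 and 478 RPKM in RT, against 68.8, 76.4, 158 and 146 RPKM in WT. For each of the 3, RT was above WT within both sets and the smaller gap lay in the deep set. They rose on reads by 0.94 ± 0.20 for Pgk1, 0.85 ± 0.18 for Pgam1 and 1.01 ± 0.16 for Pkm (limma voom adjusted p = 0.0164, 0.0164 and 0.0055). In the deep libraries alone none of these was called, with log2 fold changes of 0.67, 0.72 and 0.74, and in the shallow libraries alone all 3 were, at 1.75, 1.79 and 1.5.

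Gapdh, the dehydrogenase often used as a loading control (chromosome 6, 125161715 to 125166467), was itself higher in RT on reads, by a call that depended on the setting. It had 53.6, 40.5 and 44.9 RPKM in RT1 to RT3, against 36.7, 25.0, 9.83 and 16.0 RPKM in WT1 to WT4, with no overlap. Its log2 fold change on reads was 0.84 ± 0.23 (limma voom adjusted p = 0.0414). It was 0.51 without WT2 and lost its call without RT2, RT3, WT3 or WT4, with limma voom adjusted p-values of 0.0678 to 0.0879. The call was also lost in the shallow libraries alone (limma voom adjusted p = 0.0805) and with WT3 and WT4 summed (0.0859). With the read filter over all 7 libraries the limma voom adjusted p was 0.0536, and without the library set term 0.445. The shallow values rest on few reads, 25 in RT and 8 in WT, and in WT the shallow mean was 0.419 times the deep one, where the median gene stood at 1.35 times. Processed pseudogenes of Gapdh and of several other glycolytic genes are near-identical to their parents, and the sources used here do not say how the authors' counting treated such reads.

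Enolases, which act before pyruvate kinase, showed no change that passed in either fit over all libraries. Eno1 had 53.1, 179 and 284 RPKM in RT1 to RT3, against 53.9, 69.6, 111 and 79.5 RPKM in WT1 to WT4. RT1 was below both deep WT libraries, and RT2 and RT3 were above both shallow ones. The log2 fold change was 0.21 ± 0.29 on reads (limma voom adjusted p = 0.646), -0.23 in the deep libraries alone and 1.23 ± 0.25 in the shallow ones alone (limma voom adjusted p = 0.000528 there). Eno2 and Eno3, the isozymes of neurons and muscle, stood below 4.84 RPKM in every library, and both were listed at 0 in RT2 and RT3. Bpgm, which makes the 2,3-bisphosphoglycerate of red cells, had 3.81 RPKM in RT1, against 3.86 and 2.99 RPKM in WT1 and WT2.

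**Figure D2:**
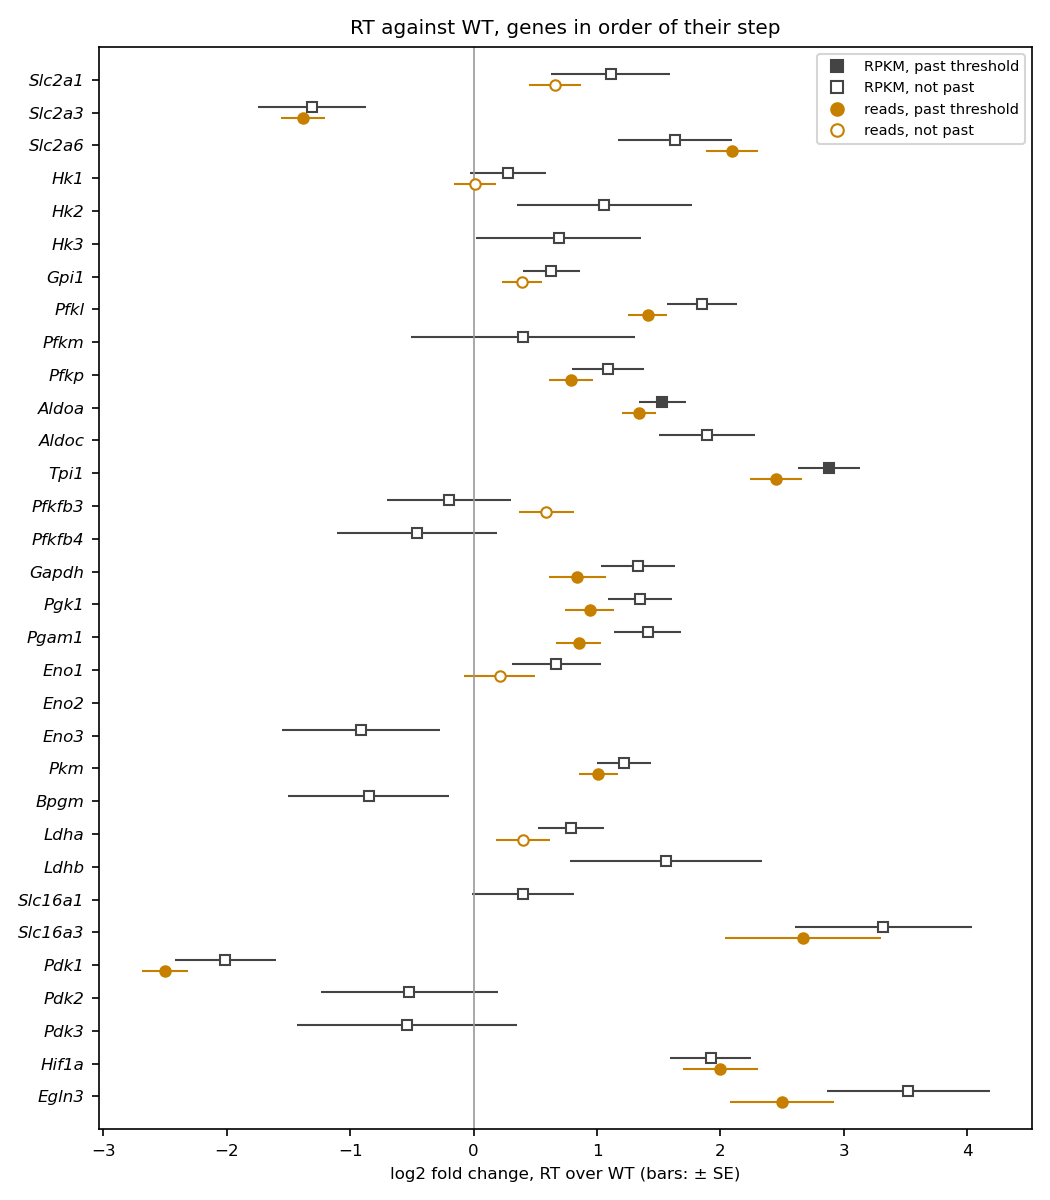
Log2 fold change of each member, RT over WT, with its standard error, from limma on log2(RPKM + 1) (squares) and limma voom on recovered reads (circles), filled where the adjusted p passed the 0.05 threshold over all genes. Tpi1 and Aldoa are filled in both fits, Pdk1 and Slc2a3 are filled left of 0 in the reads fit, and members with no circle had too few shallow reads.

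At the end of the pathway the lactate exporter rose on reads in RT. Slc16a3, which encodes the exporter MCT4 of highly glycolytic cells (chromosome 11, 120948480 to 120960868), had 7.50, 23.1 and 43.3 RPKM in RT1 to RT3, against 2.93, 0.544, 1.58 and 0 RPKM in WT1 to WT4. Every RT library lay above every WT library. The shallow libraries held 41 reads in RT and 1 in WT, a ratio of 42.0 with a 95% exact interval of 7.13 to 1701 for counting error. Slc16a3 rose on reads by 2.67 ± 0.63 (limma voom adjusted p = 0.0227) and did not pass on RPKM (3.32 ± 0.72, limma adjusted p = 0.127). Its log2 fold change was 1.45 without WT2 (limma voom adjusted p = 0.0156), and the call was lost without RT3, WT3 or WT4, with limma voom adjusted p-values of 0.0516 to 0.0542. The call was also lost with WT3 and WT4 summed (limma voom adjusted p = 0.0532). With a block for the replicate number the change was 1.64 ± 0.48 and not called (limma voom adjusted p = 0.12). Slc16a1, which encodes the transporter MCT1 that moves lactate either way, stood at 3.15 to 4.27 RPKM in RT and 1.86 to 4.13 RPKM in WT. Slc16a3 therefore held 70.4% of the RPKM of this pair in RT1, against 46.7% in WT1 and 11.7% in WT2.

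Lactate dehydrogenase was not called over all libraries. Ldha, the chain that favours lactate formation (chromosome 7, 46841475 to 46855627), had 55.7, 286 and 308 RPKM in RT1 to RT3, against 47.4, 57.9, 114 and 134 RPKM in WT1 to WT4. RT1 lay between WT1 and WT2, while RT2 and RT3 were above both shallow WT libraries. The log2 fold change was 0.40 ± 0.22 on reads (limma voom adjusted p = 0.246), 0.06 in the deep libraries alone and 1.21 ± 0.26 in the shallow ones alone (limma voom adjusted p = 0.000866 there). Ldhb, the chain of oxidative tissues, had 7.89 RPKM in RT1, against 5.97 and 9.35 RPKM in WT1 and WT2, and 5 reads in the shallow RT libraries against 1 in the shallow WT ones.

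Among the kinases that switch pyruvate dehydrogenase off, the main one of WT cells was lower in RT. Pdk1 (chromosome 2, 71873224 to 71903858) had 2.61, 7.29 and 2.11 RPKM in RT1 to RT3, against 12.9, 16.7, 21.6 and 15.9 RPKM in WT1 to WT4. Every RT library lay below every WT library. Pdk1 fell on reads, with a log2 fold change of -2.50 ± 0.19 (limma voom adjusted p = 0.000465), called also in the deep libraries alone at -2.52 and in the shallow ones alone at -2.18. It did not pass on RPKM (-2.01 ± 0.41, limma adjusted p = 0.107). Pdk2 and Pdk3 had 2.47 and 7.63 RPKM in RT1, against 0.947 to 1.45 RPKM for Pdk2 and 3.64 to 4.00 RPKM for Pdk3 in the deep WT libraries, and neither was called. Pdk1 thus held 20.5% of the RPKM of the 3 kinases in RT1, with Pdk3 at 60.1%, against 70.3% in WT1 and 78.4% in WT2. The shallow shares of this family rest on 5 and 6 reads in RT and are not read here.

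**Figure D3:**
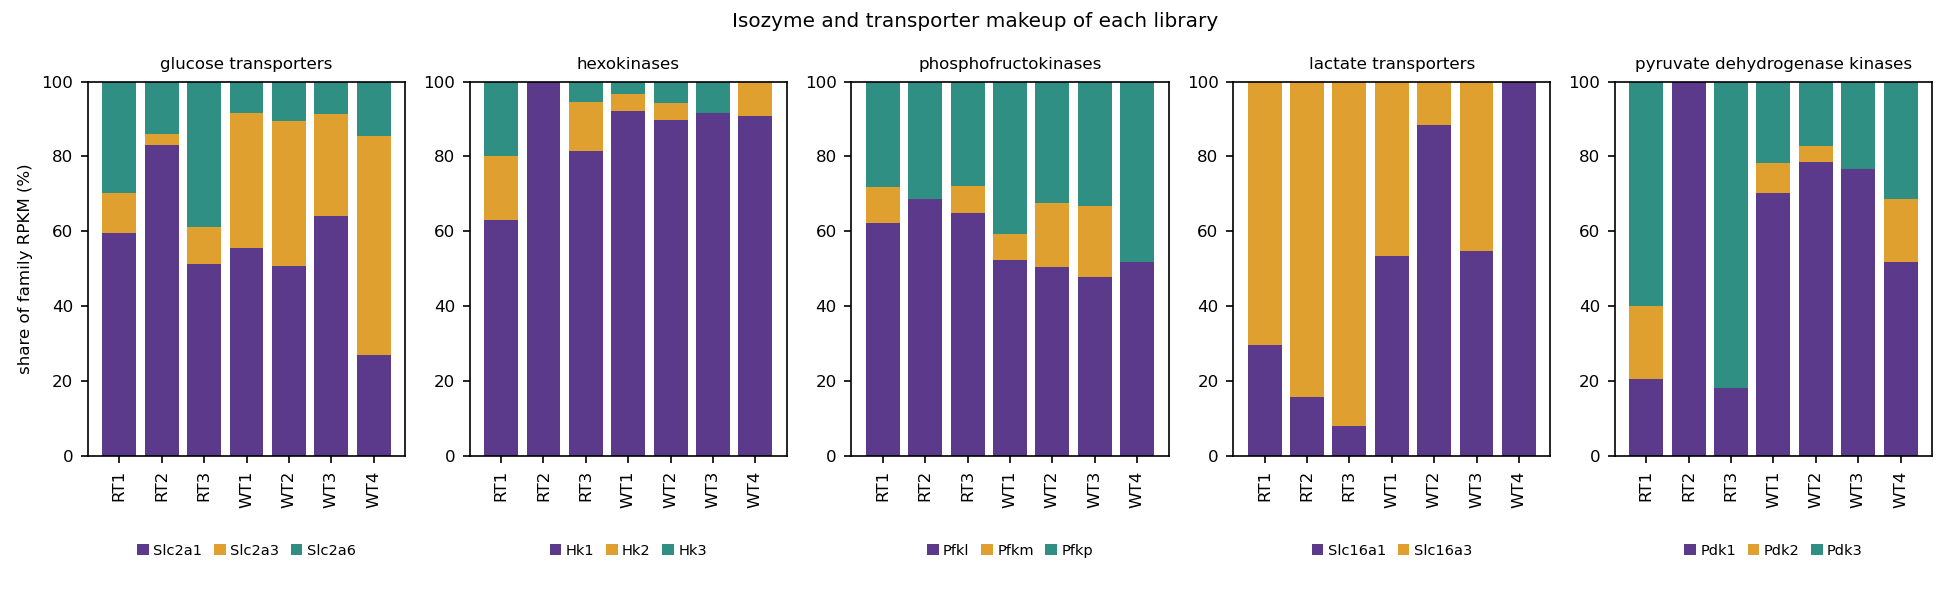
Share of each family's summed RPKM held by each isozyme or transporter in each library, RT left of WT. Pfkl is the largest part of the phosphofructokinase bar in RT and about equal to the rest in WT, Slc16a3 takes more of the lactate transporter bar in RT, and Pdk1 takes less of the kinase bar in RT1 and RT3; shallow bars of hexokinases, lactate transporters and kinases rest on few reads.

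Hif1a and Egln3, the HIF members, both rose on reads. Hif1a, the oxygen-regulated HIF chain (chromosome 12, 73901375 to 73947530), had 125, 135 and 319 RPKM in RT1 to RT3, against 37.0, 23.0, 61.3 and 54.4 RPKM in WT1 to WT4. Every RT library was above every WT library. The rise on reads was 2.0 ± 0.30 (limma voom adjusted p = 0.00394), and the change of 1.92 ± 0.33 on RPKM did not pass (limma adjusted p = 0.0848). Egln3, a prolyl hydroxylase that marks HIF chains and is itself a HIF target (chromosome 12, 54178981 to 54203860), had 13.3, 14.2 and 34.0 RPKM in RT1 to RT3, against 4.01 and 1.46 RPKM in WT1 and WT2 and 0 in WT3 and WT4. The groups did not overlap, and the shallow libraries held 15 reads in RT and 0 in WT. Against a limit of 3 reads over the WT pair this was a 5.13-fold ratio, which leaves out counting error of the RT reads. Egln3 rose on reads by 2.50 ± 0.42 (limma voom adjusted p = 0.00621). These are RNA levels, and HIF1A is regulated largely as a protein, which was not measured.

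**Figure D4:**
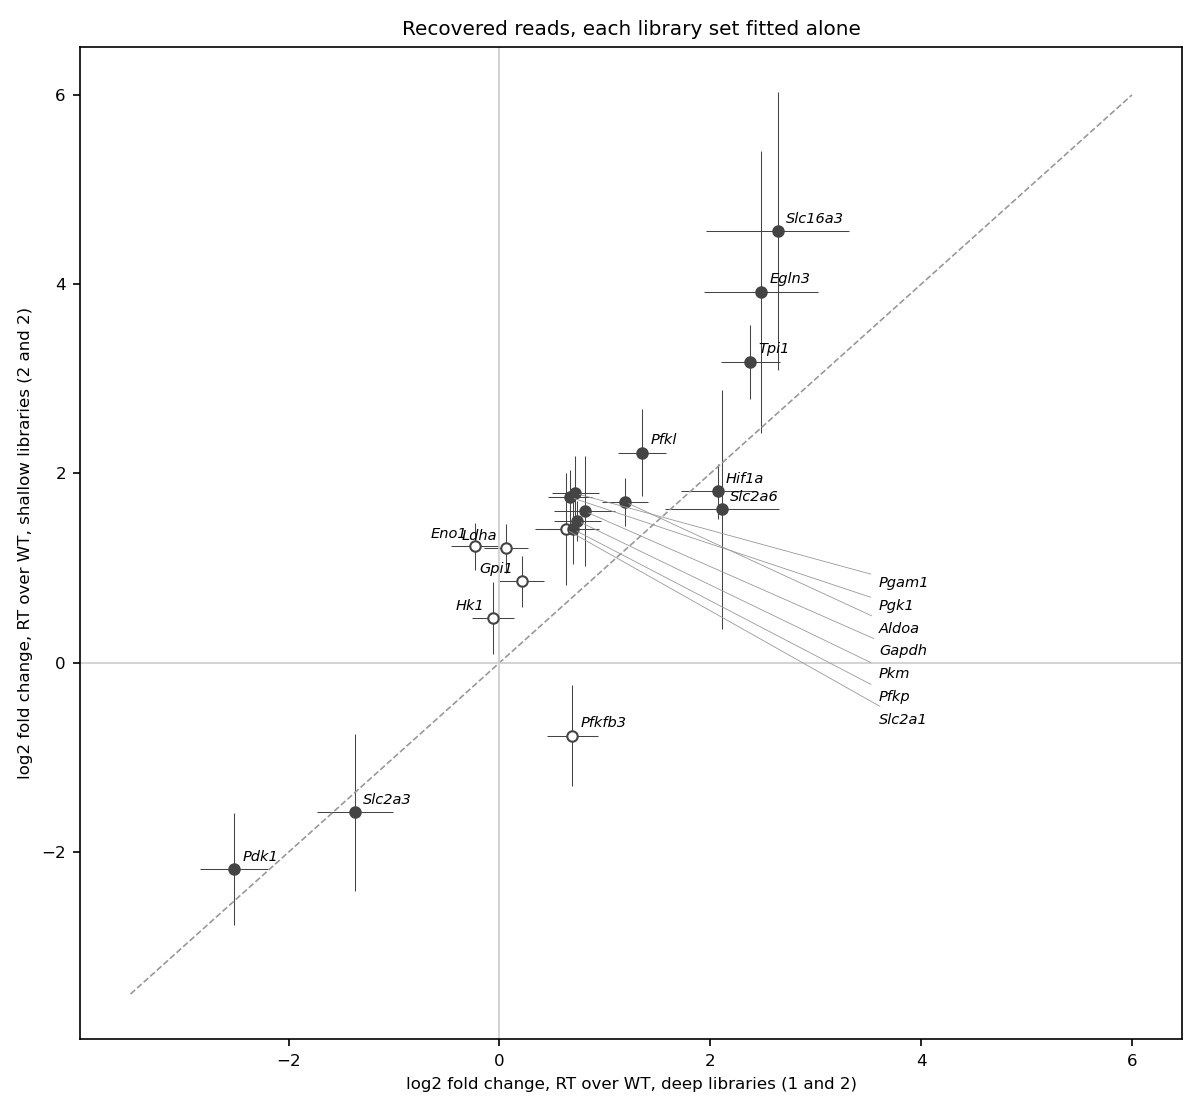
Log2 fold change of the 20 members tested on reads, RT over WT, in the deep libraries alone (horizontal, 1 RT and 2 WT) and in the shallow libraries alone (vertical, 2 RT and 2 WT), with standard errors; filled points were called over all 7 libraries. Filled points lie in the upper right or, for Pdk1 and Slc2a3, the lower left, and Pfkfb3, Eno1 and Hk1 have opposite signs in the 2 sets.

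The sets share no library, so a member's direction can be read in each. The members tested were filtered on shallow reads, however. Gapdh, Slc16a3 and Egln3 reached the minimum of 10 in RT alone, and Slc2a3 and Pdk1 in WT alone. The shallow direction of these genes is therefore not independent of the filter. Of the 20 members tested, 16 had a positive change in the deep libraries alone and 17 in the shallow ones alone, where 2799 and 2768 of 5900 genes did. The members' median was 0.71 in the deep set and 1.55 in the shallow one, beside -0.03 and -0.06 over all genes. Called members numbered 5 higher and 1 lower in the deep set, where 3.95% of genes were higher and 2.07% lower. Tpi1, Pfkl, Aldoa and Hif1a were called higher and Pdk1 lower in each set taken alone. The deep set has 1 RT library, which is assumed to vary like the WT ones, and does not separate genotype from that mouse.

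Summed over all 32 members, the pathway held 7451, 10927 and 14159 RPM in RT1 to RT3, against 4699, 4418, 4913 and 4331 RPM in WT1 to WT4. The WT libraries lay close together whatever their depth, and every RT library was above them. Without Hif1a, the sums were 5999, 10060 and 12113 RPM in RT, against 3972 to 4506 RPM in WT. Other cell contents moved too. The 8 CD4 T cell markers summed to 3567 RPM in RT1 and 8141 and 7316 RPM in RT2 and RT3, against 4285 to 4771 RPM in WT. Markers of B and plasma cells summed to 551, 196 and 197 RPM in RT, against 214 and 174 RPM in WT1 and WT2 and 2272 and 2562 RPM in WT3 and WT4. Monocyte, macrophage and neutrophil markers, whose Mpo was at 0 in every library but RT1, summed to 2364 RPM in RT1 and 299 and 411 RPM in RT2 and RT3, against 507 to 772 RPM in WT1 and WT2 and 1126 to 1133 RPM in WT3 and WT4. The sums of both lists were thus higher in RT than in WT among deep libraries and lower among shallow ones. By limma voom over all libraries 4 of 5 monocyte, macrophage and neutrophil markers tested were called higher, where 9.42% of all genes were. In the shallow libraries alone 0 of these were higher and 2 were lower, where 4.24% of genes were lower. Of 7 B and plasma cell markers tested over all libraries 0 were called. Not every marker moved with its sum. Cd14 had 12.0 and 31.4 RPKM in RT2 and RT3, against 0 in WT3 and WT4, and S100a9 overlapped there. The part of both lists in the member values was not tested.

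Red cell markers, mostly globins with Slc4a1 at 0 in RT2 and in WT1, WT3 and WT4, summed to 179 to 402 RPM in RT and 118 to 297 RPM in WT1 and WT2, and stood at 1723 to 1751 RPM in WT3 and WT4. Dendritic cell markers, with Xcr1 at 0 in all but WT1, summed to 98.3 to 137 RPM in RT, against 99.3 to 120 RPM in WT1 and WT2 and 516 to 521 RPM in WT3 and WT4. Of 5 tested on reads Flt3 and Siglech were called lower (limma voom adjusted p = 0.00799 and 0.0111), where 8.19% of all genes were, and 3 did not pass. CD8 T and NK cell markers summed to 10.3 to 17.9 RPM in RT, with Cd8a and Ncr1 at 0, against 28.4 to 92.1 RPM in WT, and platelet markers to at most 20 RPM. In bulk RNA a change in the number of cells of a type and a change of RNA per cell cannot be told apart.

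Set against the CD4 T cell markers, the members together were higher in every RT library. For every 100 CD4 marker reads the 32 genes held 209, 134 and 194 reads in RT1 to RT3, against 109, 101, 103 and 101 in WT1 to WT4. The markers are not neutral to genotype. Over all libraries Cd5 fell on reads (-0.97 ± 0.18, limma voom adjusted p = 0.00941) and the other 7 did not pass. In the shallow libraries alone Cd3d, Cd3g, Cd3e, Cd4 and Lck were called higher by limma voom. In the deep set Lat had 39.6 RPKM in RT1, against 102 and 119 RPKM in WT1 and WT2. Scaling library sizes to these markers moved the median of all genes by limma voom to 0.17, and 13 members were higher, where 7.85% of genes were, and 2 lower, where 3.07% were. They were the same 12 and 2 genes as before with Slc2a1. Within both sets 15 members stood above WT relative to these markers, where 5.53% of genes did, now including Ldha and Ldhb and no longer Slc2a1 and Gpi1.

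T cell states also differed between the groups. Markers of T follicular helper cells summed to 3663 to 4779 RPM in RT, against 814 to 1551 RPM in WT, with 9 of 10 called higher on reads. Markers of naive T cells summed to 1563 to 2698 RPM in RT, against 4013 to 5502 RPM in WT, with 8 of 9 tested called lower. Markers of dividing cells summed to 553 to 884 RPM in RT, against 501 to 786 RPM in WT, and 0 of 8 tested were called by limma voom, with 2 at an unadjusted p under 0.05 and overlapping sums. The part of these states in the member values was not tested.

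**Figure D5:**
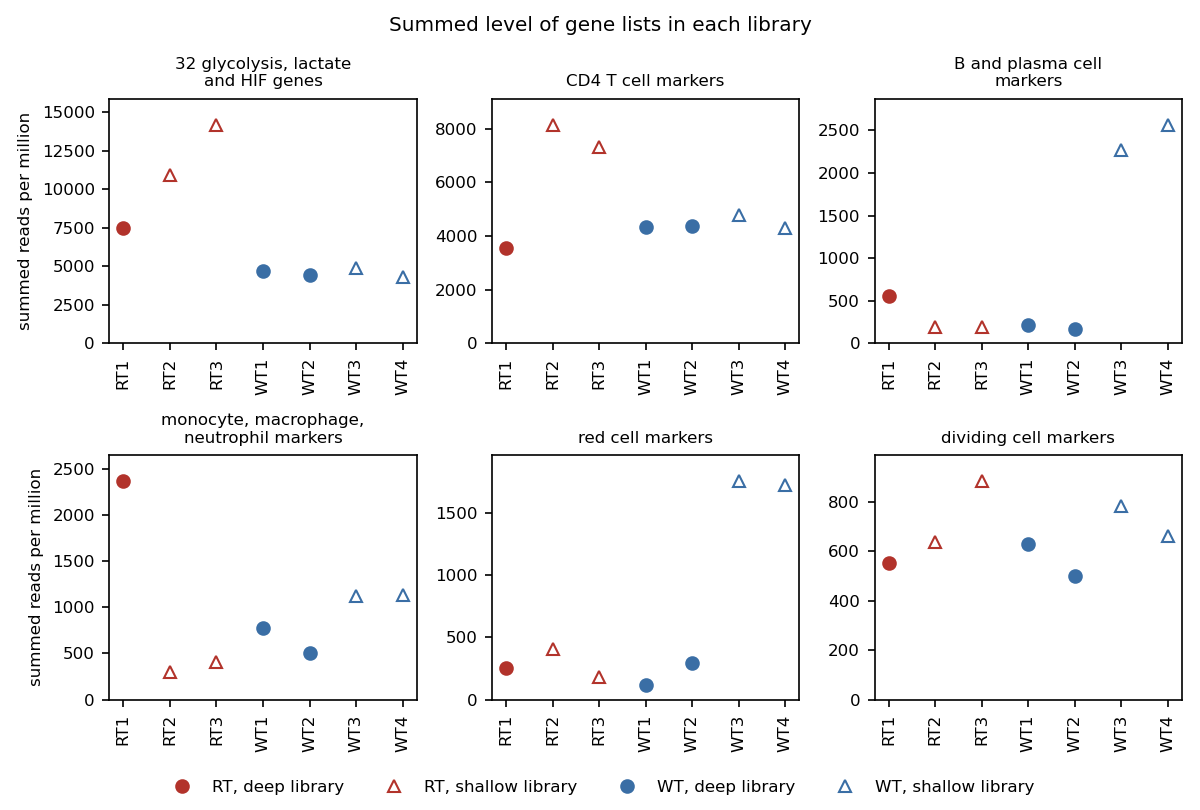
Summed reads per 1000000 recovered reads in each library for the 32 members and 5 marker lists, RT (red) left of WT (blue), circles deep and triangles shallow. Members are above WT in all 3 RT libraries, myeloid markers are highest in RT1, and B cell and red cell markers are highest in WT3 and WT4.

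Genes of the wider pathway were read from 8 further lists. Of 61 of these genes tested on reads, 9 were higher, 1 was lower and 51 did not pass, with a median log2 fold change of 0.23. Over all genes tested on reads, 9.42% rose, 8.19% fell and 31.6% had an unadjusted limma voom p under 0.05. These shares stand beside each list below. On RPKM 0 of 86 passed by limma, with 19 at an unadjusted p under 0.05, as had 13% of all genes tested. Of 14 tricarboxylic acid cycle genes 0 were called by limma or limma voom, with 1 and 2 at an unadjusted p under 0.05 and a median of -0.09 on reads. Of 5 genes of pyruvate entry into mitochondria 0 were called by limma voom, with 0 at an unadjusted p under 0.05 and a median of -0.05. Among HIF targets outside glycolysis 4 of 10 rose and 0 fell, with a median of 0.66. Fam162a, a mitochondrial protein induced by hypoxia, had 30.6, 104 and 155 RPKM in RT1 to RT3, against 14.4, 12.6, 26.5 and 25.9 RPKM in WT1 to WT4, and rose by 1.20 ± 0.20 (limma voom adjusted p = 0.00571). Bhlhe40, a transcription repressor, rose by 2.27 ± 0.39 and stood at 74.3 to 353 RPKM in RT and 8.47 to 108 RPKM in WT. Ddit4, an inhibitor of mTORC1, rose by 1.24 ± 0.29 and lost its call without RT3, WT3 or WT4, with limma voom adjusted p-values of 0.0542 to 0.0571.

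Of 9 genes for HIF subunits and regulators 2 rose. Arnt2, a dimer partner of HIF alpha chains, had 14.8, 13.5 and 17.1 RPKM in RT, against 2.47, 1.05, 0 and 2.14 RPKM in WT, and rose by 3.21 ± 0.37 (limma voom adjusted p = 0.00144). Egln2, another prolyl hydroxylase, rose by 0.65 ± 0.15, a call lost without RT3 or WT4 (limma voom adjusted p = 0.0556 and 0.0517). Without RT1, Egln2 was at 0.30 and uncalled. Arnt, the usual partner of HIF1A, stood at 4.11 to 6.26 RPKM in RT and 4.20 to 6.16 RPKM in WT and did not pass (0.29 ± 0.16, limma voom adjusted p = 0.246). Myc, a transcription factor that drives glycolytic genes on T cell activation, was the one gene lower among 8 regulators tested, with 5.18, 13.9 and 15.1 RPKM in RT, against 12.3, 19.5, 27.8 and 18.2 RPKM in WT. Its log2 fold change was -1.56 ± 0.24 (limma voom adjusted p = 0.00466) and -0.61, not called, with RT1 left out, and RT1 was below both deep WT libraries while RT2 and RT3 were below both shallow ones.

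Side branches of the pathway had few calls. In the pentose phosphate pathway, which takes glucose 6-phosphate for NADPH and ribose, 1 of 7 genes rose, Pgd, with 7.38, 11.7 and 12.7 RPKM in RT, against 4.41, 4.91, 3.91 and 6.38 RPKM in WT (0.66 ± 0.15, limma voom adjusted p = 0.0216). Among 6 other hexose and gluconeogenic genes tested, Pgm2, a phosphoglucomutase, rose by 0.89 ± 0.23 and G6pc3, a glucose 6-phosphatase, by 1.26 ± 0.31. Without RT3 the calls of Pgd, Pgm2 and G6pc3 were lost, with limma voom adjusted p-values of 0.0541 to 0.0698, those of Pgm2 and G6pc3 were also lost without WT3 (limma voom adjusted p = 0.0602 and 0.058), that of Pgm2 without WT4 (0.0555) and that of G6pc3 without WT1 (0.0503). Of the partners of lactate transporters, Bsg, the chaperone of MCT1 and MCT4, stood at 34.0, 172 and 109 RPKM in RT, against 22.9, 29.5, 55.6 and 54.4 RPKM in WT, and did not pass (0.46 ± 0.19, limma voom adjusted p = 0.137). Embigin (Emb), a second chaperone, had a log2 fold change of 0.17 ± 0.31 over all libraries and did not pass (limma voom adjusted p = 0.739). In the shallow libraries alone both chaperones were called higher, Bsg at 1.22 ± 0.40 and Emb at 1.58 ± 0.42 (limma voom adjusted p = 0.0471 and 0.00929).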

How the data were processed

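CD4+ splenocytes were sorted by flow cytometry, and an Illumina TruSeq v2 kit turned 150 ng of RNA into each library, per the labels' protocols. This kit does not mark strand, so reads of overlapping antisense genes cannot be told apart. The deposited values are RPKM per gene symbol in 7 columns, 1 per library, with mm10 named as the build in the submitters' processing notes. No source used here gives the aligner, counter or gene models. GENCODE M21 (mm10) supplied coordinates and held 19432 of the symbols.

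The main test was limma 3.58.1 (R 4.3.3) with a trended prior variance on log2(RPKM + 1), over genes that reached 1 RPKM in 3 or more libraries, with terms for genotype and library set. Fold changes on this scale understate the change of low genes. Whole reads were recovered from the RPKM values with GENCODE exon lengths, with which 78.9% to 83.8% of values under 100 reads were whole within 0.01 reads. Of 13859 genes above 0, 13025 gave whole reads with 1 length and 834, among them Aldoa and Pfkm, needed 2 lengths, 1 for each library set, within 0.003 reads. These reads were 47.8% to 51.7% of the totals in deep and 88.8% to 92.0% in shallow libraries. A level of 3 reads, taken as the limit for a count of 0, was 0.272 to 0.338 RPM in deep and 26.8 to 31.0 RPM in shallow libraries, for counting error only. They were fitted with limma voom, with the same terms, over genes whose shallow libraries together held at least 10 reads. Tests were two-sided, with Benjamini-Hochberg adjustment over all genes tested and a threshold of 0.05. P-values measure the spread between these samples. Alternatives were another pseudocount, filter, scaling and covariate, each library left out, each set alone, a replicate block and WT3 and WT4 joined.

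Values in every library are given for members called in either fit and for the 6 with the highest mean RPKM. From each further list up to 3 called genes with the smallest p in the main test are named; Arnt, Bsg and Emb were added after their values were seen. A marker of one list is not reported here. The members and lists were chosen with earlier results of these data known.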

Additional observations from a re-analysis of the deposited data

How the results depend on the processing

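By limma on RPKM, 2 members were higher and 0 lower, and 21 genes were higher and 5 lower. Without the library set term these were 0 members and 4 and 1 genes, in the deep libraries alone 0 members and 0 and 0 genes (1376 at an unadjusted p under 0.05), and in the shallow ones alone 1 member and 5 and 38 genes. With no filter, and with WT3 and WT4 averaged, there were 0 members and 0 and 0 genes, with 1328 and 908 genes at an unadjusted p under 0.05. Leaving out a library gave 0 to 10 members, 0 to 168 genes higher and 0 to 278 lower, the highest without RT1, with 892 to 2031 genes at an unadjusted p under 0.05. Listed pathway genes numbered 0 higher and 0 lower, 1 higher with log2(RPKM + 5) and 0 to 4 higher leaving out a library. Limma voom on reads instead gave 12 and 2 members, 556 and 483 genes and 9 and 1 listed genes.

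By limma voom the deep libraries alone gave 5 and 1 members, 233 and 122 genes and 2 and 0 listed genes. The shallow libraries alone gave 12 members higher and 1 lower, 187 and 250 genes and 4 and 0 listed genes. Leaving out a library gave 0 to 13 members, 0 to 757 genes and 0 to 14 listed genes higher, and 0 to 2 members, 0 to 669 genes and 0 to 3 listed genes lower, each 0 without RT1 (494 genes at an unadjusted p under 0.05). Without the set term there were 311 and 209 genes. Scaled to CD4 T cell markers 181 genes were lower. With WT3 and WT4 summed there were 9 members higher and 2 lower, 426 and 328 of 6471 genes tested, and 5 listed genes higher. With the filter over all 7 libraries 2 listed genes were lower. The causes were not tested.

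Whether the replicate numbers pair the mice cannot be told from the correlations of deviations, which keep the difference between the library sets. They were 0.432, -0.179 and 0.184 for numbers 1 to 3, and RT2 and WT2 lie in opposite sets. Within a set, RT1 had 0.342 with WT2, and RT3 had 0.178 with WT4. With a replicate block, limma on RPKM called 0 genes higher, 0 lower and 0 members, with 873 genes at an unadjusted p under 0.05, and limma voom called 193 and 118 genes, 7 and 2 members and 3 listed genes higher.

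Signs turned for 10 members, none of them called in either main fit. On RPKM the log2 fold change was -0.03 for Hk1, 0.62 for Pfkfb3, 0.60 for Pfkfb4, -0.20 for Eno1, 0.13 for Bpgm, -0.18 for Slc16a1, 0.67 for Pdk2 and 0.84 for Pdk3 in the deep libraries alone. Hk3 was at -0.01 in the shallow ones alone and at -0.01 to 1.30 leaving out a library. Pfkm was at -0.33 to 1.20 leaving out a library and -0.13 with the block. Leaving out a library gave -0.74 to 0.36 for Pfkfb3, -1.16 to 0.30 for Pfkfb4, -1.32 to 0.33 for Pdk2 and -1.46 to 0.54 for Pdk3. Pfkfb3 was at 0.07 with the block and 0.59 on reads. On reads Hk1 was at -0.06 in the deep libraries, -0.05 to 0.48 leaving out a library, -0.10 with the block and -0.01 with the filter over all libraries. Pfkfb3 was at -0.77 in the shallow libraries and -0.76 to 0.65 leaving out a library, and Eno1 at -0.23 in the deep ones and -0.03 with the filter over all libraries. Depth limits all 12 members with too few shallow reads to test.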
